A study of Rattus norvegicus with 458 samples.

Results

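The duodenum, the first segment of the small intestine, was compared with the jejunum, the segment that follows it, by small RNA sequencing of both tissues from the same 6 rats. The 12 libraries belong to an atlas of 215 libraries from 23 rat tissues that was made to find miRNAs marking injury of single organs. Of the 10 duodenum libraries of the atlas, 6 were compared, those of the males 3, 5 and 6 and of the females 8, 9 and 10, each beside the jejunum library of the same rat. All were untreated (naïve) Sprague Dawley rats, 12 to 13 weeks old, and neither tissue carried any transgene or treatment.

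The duodenum libraries of rats 2, 4, 7 and 11 were left out because their profile was that of another organ, so the choice of libraries used their measured values. In these 4, miR-215 lay between 6.35 and 55.8 CPM (counts per 1000000 of the library total), against 215526 to 323686 CPM in the 6 that were compared. Their median correlation with the other duodenum libraries was 0.569 to 0.728, but 0.921 to 0.982 with the cerebrum (rats 2 and 7), the hippocampus (rat 4) or the adrenal (rat 11). Both markers of the small intestine, miR-215 and miR-194-5p, were among the leading names in all 12 libraries, with at least 12898 CPM of miR-194-5p in each. The duodenum of rat 10 correlated with the jejunum at 0.947 and with its own tissue at 0.946, so whole profiles of the 2 tissues lay close together. With the 4 odd libraries kept under their labels, all 10 pairs gave 4 names higher and 0 lower among 432 tested, with 88 at an unadjusted p below 0.05 in the same edgeR test.

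The duodenum was collected as the piece attached to the stomach, and the jejunum as a piece from its midpoint, both with the lumen rinsed. RNA came from homogenates of whole pieces, so epithelium, muscle, immune cells and attached tissue were measured together. In such bulk RNA, fewer cells of a type and less RNA per cell cannot be told apart. Re-extracted RNA was used for the duodenum of rats 5, 6 and 9 and for the jejunum of rat 10.

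MicroRNAs are RNAs of about the length of the sequences printed below that bind mRNAs mainly through their seed, bases 2 to 8, and lower their translation or stability. The miR-192, miR-194 and miR-215 genes sit in paired clusters and are the hallmark miRNAs of the intestinal epithelium. The exocrine pancreas, whose acinar cells make miR-216a, miR-216b and miR-217, lies in the loop of the duodenum. These pancreas miRNAs are therefore given apart from the other differences.

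The first set of sequences below shows the epithelial miRNAs, of which miR-192-5p and miR-215 share a seed. The second set shows miRNAs with a higher mean level in the pancreas than in the jejunum. The third set holds miRNAs that differed in either direction, some of them with the same seed. Capitals mark the seed, and all sequences are mature RNAs from RefSeq on the rat build GRCr8, in which 70 of the 83 singly named miRNAs considered were found.
miR-215: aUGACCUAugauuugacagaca
miR-192-5p: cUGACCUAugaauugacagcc
miR-194-5p: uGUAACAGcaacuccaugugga
miR-217-5p: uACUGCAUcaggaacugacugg
miR-216a-5p: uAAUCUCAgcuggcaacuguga
miR-216b-5p: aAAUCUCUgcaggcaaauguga
miR-148a-3p: uCAGUGCAcuacagaacuuug
miR-152-3p: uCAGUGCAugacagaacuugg
miR-92b-3p: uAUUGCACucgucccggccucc
miR-363-3p: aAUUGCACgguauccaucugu
miR-92a-3p: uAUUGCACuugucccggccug
miR-31a-5p: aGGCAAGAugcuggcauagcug
miR-204-5p: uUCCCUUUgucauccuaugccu
miR-10a-5p: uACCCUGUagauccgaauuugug
miR-10b-5p: cCCUGUAGaaccgaauuugugu

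Over the 21 bases they share, miR-192-5p and miR-215 are identical at 18, with the substitutions C1A, A12U and C20A counted from the 5′ end of miR-192-5p. The mature miR-215 lies at chr13:99383003-99383024 on the plus strand, inside Iars2 and 191 bases past the Mir194-1 hairpin. The mature miR-192-5p lies at chr1:212994232-212994252 on the plus strand, 100 bases past the Mir194-2 hairpin. Both Mir194 genes give the same mature miR-194-5p, so its reads cannot be assigned to either locus. On chromosome 14, Mir216b, Mir216a and Mir217 follow each other on the plus strand, with miR-217-5p at chr14:106732516-106732537.

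Library totals were 1257344 to 6520992 counts in the duodenum and 1989447 to 5493614 in the jejunum. The duodenum library was the smaller of the pair in 5 of 6 rats, with a mean difference in log10 total of -0.17 (two-sided exact sign-flip test, p = 0.0625, where 0.03125 is the smallest p that 6 pairs allow). The RNA integrity number was 6.8 to 7.7 in the duodenum and 6.9 to 7.9 in the jejunum (mean difference -0.25, exact p = 0.3125). Counting error is small for the abundant miRNAs at these depths, whereas names near 10 CPM rest on few reads in the smallest libraries.

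Of 401 names tested in the paired fit, 61 differed between the tissues at an adjusted p below 0.05, which is 15.2% of all names. The duodenum was higher for 26 (6.48%) and lower for 35 (8.73%), by edgeR's quasi-likelihood test with Benjamini-Hochberg adjustment over all names. Of the 26 higher names, 6 were the miR-216 and miR-217 names. Levels below are scaled CPM, that is, CPM divided by edgeR's upper quartile factor of the library, unless CPM is named. Fold changes are log2 of duodenum over jejunum.

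The scale matters in this comparison because 2 miRNAs fill much of each library. Together, miR-215 and miR-192-5p took 34.6% to 46.4% of all counts in the duodenum (median 39.5%) and 54.2% to 62.3% in the jejunum (median 58.4%), with no overlap. Upper quartile factors averaged 1.246 in the duodenum and 0.819 in the jejunum. On library totals alone, the median log2 fold change of all names moved by 0.617, from -0.02 to 0.60. The split of calls was then 194 higher and 5 lower (97.5% higher), against 42.6% higher with upper quartile scaling and 53.7% higher with TMM, at 36 higher and 31 lower. All 26 higher names stayed higher and past the threshold on library totals and with TMM. Of the 35 lower names, 30 stayed past the threshold with TMM. On library totals 5 of the 35 stayed past it, 11 had a positive log2 fold change, and 0 were past the threshold as higher.

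Of the 7 tested names of the intestinal epithelium, 4 were lower in the duodenum and 0 higher, against 8.73% lower over all names. The leading name of the jejunum, miR-215, was at 147824, 224442 and 268575 scaled CPM in the duodenum (lowest, median and highest of 6) and at 384219, 492524 and 639343 in the jejunum. Every duodenum library lay below every jejunum library, as it did for 16 of the 401 names (3.99%), while it lay above for 19 (4.74%). The log2 fold change was -1.25 (SE 0.19, adjusted p = 0.0036, edgeR), and on library totals it was -0.63 (adjusted p = 0.0049). In CPM, miR-215 was lower in the duodenum of all 6 rats.

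For miR-192-5p, which shares the seed of miR-215, the 3 levels were 82434, 110477 and 127139 in the duodenum and 155502, 245466 and 293743 in the jejunum. These groups did not overlap either, and the log2 fold change was -1.07 (SE 0.15, adjusted p = 0.0029, edgeR). The composite name of reads that fit both miR-192-5p and miR-215 had a log2 fold change of -1.82 (adjusted p = 0.0091), at 10.6 to 52.8 in the duodenum and 69.1 to 174 in the jejunum. Since these miRNAs differ at few bases, reads that carry a sequencing error or an end variant could be counted under either name.

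Their cluster partner miR-194-5p was at 9611 to 14807 in the duodenum (median 12118) and 15104 to 26934 in the jejunum (median 23348). Its log2 fold change was -0.86 (SE 0.14, adjusted p = 0.0052, edgeR), and on library totals it was -0.24 (adjusted p = 0.11), with CPM lower in 4 of 6 rats. The median log2 fold change of the 7 was -0.95, or -0.37 on library totals, against -0.02 over all names tested. With the pancreas share taken off, as described below, the median of the 7 was -0.75. That median does not show which of the 4 calls held. The 3 without a call were miR-215-5p (-0.95), miR-194-3p (-0.47) and miR-192-3p (-0.35), and the last pair turned positive on library totals (0.14 and 0.27). The duodenum of rat 8 had 214 scaled CPM of miR-215-5p and the other 5 had 36.0 to 57.9, against 68.3 to 157 in the jejunum. Without a run of that library in which many reads carry an extra base, described at the end, the log2 fold change of miR-215-5p was -1.41 (adjusted p = 0.00086, edgeR, chosen after seeing the data).

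**Figure D1:**
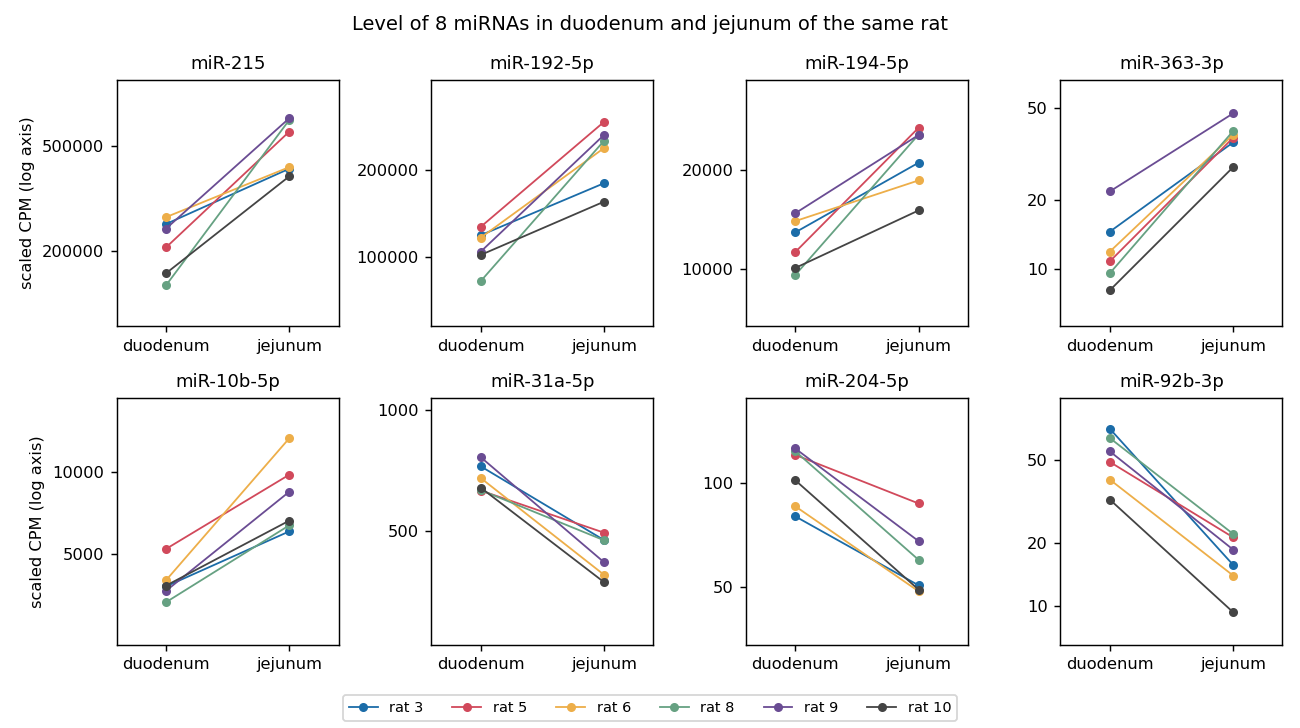
Levels of 8 miRNAs in the duodenum and jejunum of each of the 6 rats, in scaled CPM on a log axis, with 1 line per rat. The 5 miRNAs miR-215, miR-192-5p, miR-194-5p, miR-363-3p and miR-10b-5p fall from jejunum to duodenum in all 6 rats on this scale, and miR-31a-5p, miR-204-5p and miR-92b-3p rise in all 6; on library totals the 8 fold changes keep their signs.

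The miR-216 and miR-217 names were present in every duodenum library and nearly absent from the jejunum. For miR-217-5p there were 10802 counts over the 6 duodenum libraries and 6 over the 6 jejunum libraries, a ratio of pooled CPM of 2468 (95% interval 1134 to 6724, counting error of the jejunum counts only). The level was 241, 435 and 669 scaled CPM in the duodenum and at most 1.21 in the jejunum. For miR-216a-5p, 7164 counts stood against 2, a ratio of 4910 (1359 to 40540), and for miR-216b-3p, 443 against 1, a ratio of 607.2 (109 to 23980).

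The other 3 names had no count in the jejunum. With a floor of 3 counts over the 6 jejunum libraries, miR-216b-5p was at least 762-fold, miR-216a-3p at least 419-fold and miR-217-3p at least 97.8-fold higher in the duodenum. All 6 names were past the threshold, with adjusted p between 9.0e-07 and 0.0097 in the edgeR fit. A further entry named miR-217 had 0 counts in both tissues.

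In the pancreas of the same rats these names are abundant, with 6468 ± 1811 CPM of miR-217-5p and 4987 ± 633 CPM of miR-216a-5p (SD, n = 6). All of this pancreas RNA was re-extracted. The paper reports that pancreas had the lowest RNA integrity numbers of its tissues and the fewest reads on mature miRNAs. Summed over the names, a duodenum library reached 8.51% ± 4.28 of the level of the same rat's pancreas (SD, n = 6), from 4.30% in rat 8 to 16.05% in rat 3. The jejunum reached 0.0033%. By miR-217-5p alone the duodenum share was 9.39%, and by miR-216a-5p alone 7.05%. The leading reads of these miRNAs were alike in both organs for miR-217-5p and miR-216b-5p and not for miR-216a-5p. The full RefSeq sequence of miR-216b-5p led in both organs. It was at 48.85% ± 3.8 in the duodenum (SD, n = 4 libraries with at least 100 reads) and 45.7% ± 10.8 in the pancreas (SD, n = 6). For miR-217-5p, the RefSeq sequence with an added a (tactgcatcaggaactgactgga) led in both, at 47.7% ± 2.66 in the duodenum and 43.2% ± 8.36 in the pancreas (SD, n = 6 each). For miR-216a-5p, the full RefSeq sequence led in the pancreas, at 20.1% ± 5.75 (SD, n = 6), and was at 11.6% ± 2.30 in the duodenum (SD, n = 5 libraries with at least 100 reads). The form 20 bases long led in the duodenum, at 28.3% ± 1.81, and was at 16.8% ± 4.77 in the pancreas. These duodenum shares leave out a run of rat 8 described at the end, in which the leading form of miR-217-5p was 25.8% of its reads.

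**Figure D2:**
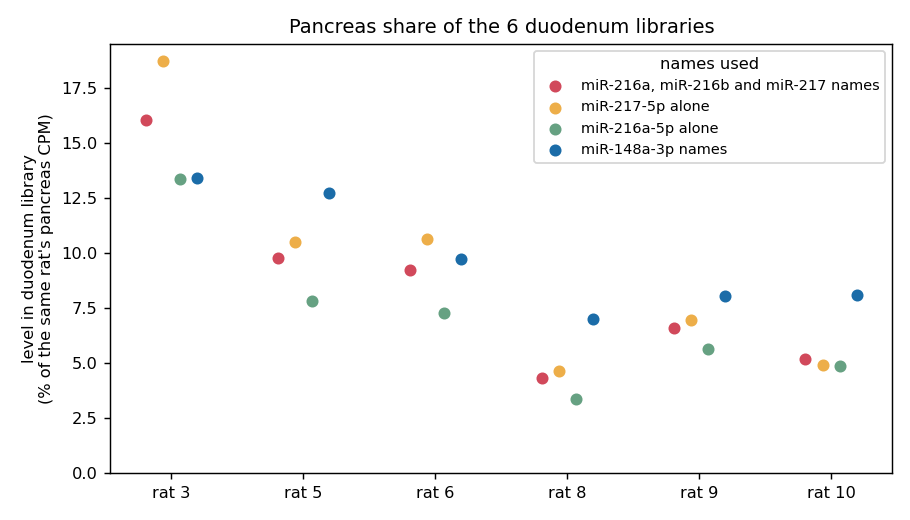
Level of the pancreas names in each duodenum library as a percent of the CPM in the pancreas library of the same rat, from 4 choices of names. With all miR-216a, miR-216b and miR-217 names the share runs from 4.30% (rat 8) to 16.05% (rat 3), and rat 3 is the highest with each of the 4 choices.

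Most other names that were higher in the duodenum had a higher mean CPM in the pancreas than in the jejunum. Of the 20 higher names without miR-216 and miR-217, 19 had a mean CPM in the pancreas above that in the jejunum. Of the 35 lower names 5 did. The number among all 401 names was not counted, so the 19 cannot be set against a share over all names. These means are unscaled, and miR-215 and miR-192-5p took a median of 58.4% of the jejunum counts. The most abundant of the 20 higher names was a composite that joins miR-148a-3p to a predicted sequence and took 60% of the pancreas counts. It was at 28146, 42583 and 77528 in the duodenum and 5437, 5665 and 7211 in the jejunum, with no overlap and a log2 fold change of 2.93 (SE 0.25, adjusted p = 0.00020, edgeR). A part of the size of the pancreas share would make up 87.5% of its duodenum CPM.

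The same reckoning gave 115% for miR-672-5p (log2 fold change 3.09, adjusted p = 0.00096, edgeR) and 104% for miR-153-3p (2.13, adjusted p = 0.0029). It gave 73.5% for miR-34a-5p (1.46, adjusted p = 0.026), a p53 target, and 69.0% for miR-193b-3p (1.03, adjusted p = 0.025). For miR-141-3p, a member of the epithelial miR-200 family, it gave 71.2% (0.88, adjusted p = 0.0029), and for miR-99a-5p 43.4% (0.97, adjusted p = 0.0019). The part of pancreatic tissue in these differences was not tested beyond this arithmetic.

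When that share of the same rat's pancreas profile was taken off every name before the fit, 390 names were tested and 17 were past the threshold (4.36%), 4 higher (1.03%) and 13 lower (3.33%). The 4 higher were miR-92b-3p, miR-31a-5p, miR-204-5p and what was left of miR-216b-5p. The composite with miR-148a-3p was then at a log2 fold change of -0.02 and miR-141-3p at -1.12 (adjusted p = 0.996 and 0.26, edgeR).

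**Figure D3:**
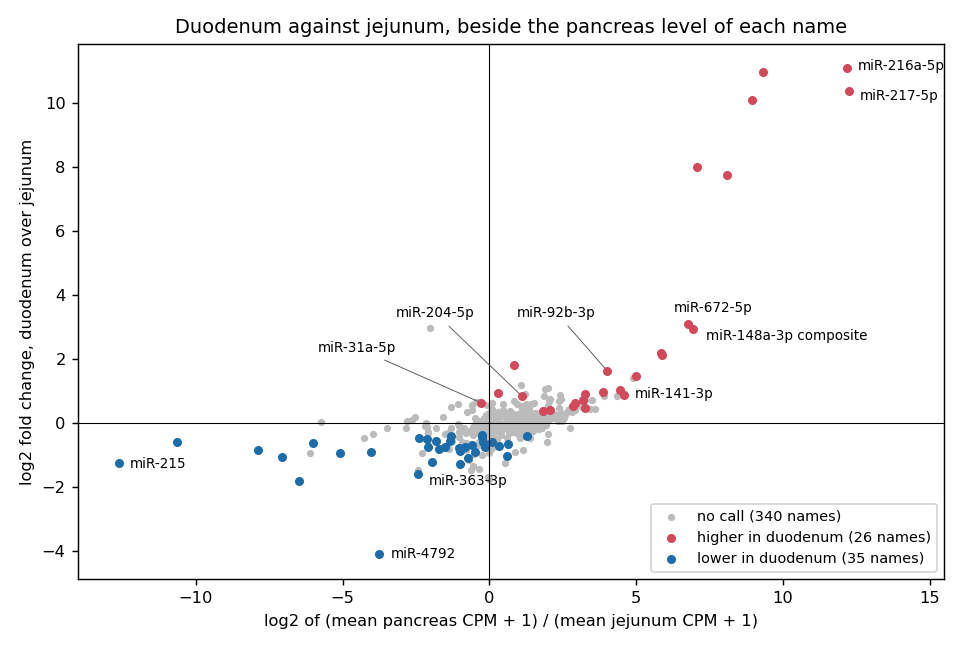
For the 401 names tested, the log2 fold change of duodenum over jejunum is plotted against log2 of the mean pancreas CPM plus 1 over the mean jejunum CPM plus 1. The 26 higher names (red) lie mostly at the right, where pancreas levels exceed jejunum levels, and the 35 lower names (blue) mostly at the left. On library totals, 11 of the blue names have a positive fold change.

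After the pancreas share was taken off, 3 names other than miR-216b-5p stayed higher. The first, miR-31a-5p, a miRNA known from proliferating crypt cells of the intestine, was at 631, 660 and 764 in the duodenum and 374, 447 and 496 in the jejunum. Its groups did not overlap, and the log2 fold change was 0.64 (SE 0.10, adjusted p = 0.0039, edgeR), or 0.80 (adjusted p = 0.0059) with the share off. Means of several tissues, here and below, are in unscaled CPM, and the leading miRNAs of these tissues differ. Here miR-31a-5p averaged 843 in the duodenum, 356 in the jejunum, 764 in the ileum, 643 in the glandular stomach and 289 in the pancreas. It is the only 1 of the 20 higher names whose pancreas mean lay below its jejunum mean. Its other arm, miR-31a-3p, was at 7.26 to 11.6 in the duodenum and 3.10 to 8.50 in the jejunum (0.95, adjusted p = 0.045, or 0.059 with the share off).

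Next, miR-204-5p, which lies inside Trpm3 at chr1:229743493-229743514, was at 80.2, 112 and 126 in the duodenum and 48.6, 55.2 and 87.4 in the jejunum. The groups overlapped, but the duodenum was higher in all 6 rats, with a log2 fold change of 0.83 (SE 0.12, adjusted p = 0.0029, edgeR), or 0.91 with the share off (adjusted p = 0.013). Of the 5 tissues set side by side, its mean was highest in the glandular stomach, at 434 CPM, against 134 in the duodenum, 106 in the pancreas, 80.8 in the ileum and 48.3 in the jejunum. It fell outside the rule for named miRNAs and was chosen after its values were seen.

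The third, miR-92b-3p, was at 32.3, 51.9 and 70.6 in the duodenum and 9.31, 17.1 and 22.1 in the jejunum, again with no overlap. The log2 fold change was 1.63 (SE 0.16, adjusted p = 0.00043, edgeR), and 1.21 with the share off (adjusted p = 0.017), the share making up 31.7% of its duodenum CPM. Its mean was 228 CPM in the pancreas and 75.5 CPM in the glandular stomach, the tissue to which the duodenum piece was attached. The part of stomach tissue in the duodenum pieces was not tested. A composite of miR-3473 with a predicted miRNA was also higher (1.82, adjusted p = 0.035, edgeR), at 8.25 to 65.99 against 2.43 to 8.18, and it missed the threshold with the share off (adjusted p = 0.067).

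Names that share a seed did not all carry the same call. The seed AUUGCAC is shared by miR-92b-3p, which was higher, by miR-363-3p and miR-92a-3p, which were lower, and by miR-25-3p and miR-32-5p, which had no call. The seed GGCAGUG is shared by miR-34a-5p, which was higher, and by miR-34c-5p (-0.76, adjusted p = 0.046) and miR-449a-5p (-1.22, adjusted p = 0.021), which were lower and were chosen after their values were seen. These calls were unsteady, made in 3, 2 and 3 of 6 fits with a rat left out. With the pancreas share off, miR-34a-5p was at -0.45. The let-7 seed GAGGUAG is carried by 9 mature names in RefSeq, and how many of them were tested was not counted. Of these, miR-98-5p (0.89, adjusted p = 0.023), let-7c-5p (0.72, adjusted p = 0.0054) and let-7b-5p (0.53, adjusted p = 0.0042) were higher and none was lower in the edgeR fit. Over all names tested, 6.48% were higher and 8.73% lower, but without the number tested the 3 calls cannot be set against these shares. All 3 were above the jejunum in the pancreas too (944, 11338 and 2615 mean CPM, against 96.9, 1245 and 365 CPM), and none passed the threshold with the share off. With the seed CAGUGCA, the composite with miR-148a-3p was higher, as given above. In this group miR-152-3p was also higher (0.47, adjusted p = 0.036), in 1 of 6 fits with a rat left out and at 0.0154 with the share off (adjusted p = 0.96), and miR-148b-3p was not past the threshold (-0.21, adjusted p = 0.29).

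Among the lower names, the steadiest was miR-363-3p, of the X-linked cluster that also holds Mir92a2, 64 bases away. It was at 8.07, 11.3 and 21.7 in the duodenum and 27.7, 37.7 and 47.3 in the jejunum, with no overlap. The log2 fold change was -1.60 (SE 0.17, adjusted p = 0.00069, edgeR), -0.99 on library totals (adjusted p = 0.0055) and -1.43 with the pancreas share off (adjusted p = 0.0059). The fold was past the threshold in 23 of 25 alternative fits. Its relative miR-92a-3p was at 2445 to 4429 in the duodenum and 3928 to 6294 in the jejunum (-0.60, adjusted p = 0.021), but at 0.02 on library totals.

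The largest fold among the lower names was that of miR-4792, a name known from human miRBase entries. It was at 0.660, 2.88 and 5.16 in the duodenum and 4.24, 44.3 and 575 in the jejunum, where rat 6 had the highest level. The groups overlapped, and the log2 fold change was -4.12 (SE 0.83, adjusted p = 0.012, edgeR). It was not past the threshold without rat 5 (adjusted p = 0.059), and the fold ran from -7.28 to -1.23 over the alternatives.

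Of the miRNAs encoded in the Hox clusters, whose genes carry positional identity along the body axis, 3 of 4 tested names were lower in the duodenum and 0 higher, against 8.73% lower over all names. For miR-10b-5p, inside Hoxd4 at chr3:80035886-80035907, levels were 3342, 3830 and 5236 in the duodenum and 6073, 7566 and 13318 in the jejunum. They did not overlap, and the log2 fold change was -1.04 (SE 0.14, adjusted p = 0.0029, edgeR). For miR-10a-5p they were 20498, 21897 and 31332 against 29382, 42384 and 55356 (-0.82, adjusted p = 0.0029), with an overlap of the highest duodenum library, that of rat 5. Along the gut, the mean CPM of miR-10a-5p was 20593 in the glandular stomach, 29018 in the duodenum, 33758 in the jejunum and 51833 in the ileum. For miR-10b-5p the same 4 means were 6624, 4925, 6825 and 10410, so the stomach lay above the duodenum. These means are not scaled between the tissues, and their order along the gut was not tested. The third call was the composite of both names (-1.29, adjusted p = 0.025), past the threshold in 3 of the 6 fits that leave out a rat. The median of the 4 was -0.93, or -0.31 on library totals and -0.89 with the pancreas share off. The last median does not show which of the 3 calls held with the share off. The fourth, miR-10a-3p, was at -0.31 (adjusted p = 0.32) and turned to 0.31 on library totals. The other 6 measured names of these clusters, among them those of miR-196 and miR-615, were too low to be tested.

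Of 7 tested leukocyte names, 6 were lower in the duodenum and 0 higher, against 8.73% lower over all names, with a median log2 fold change of -0.80, or -0.18 on library totals. The pan-leukocyte miR-142-5p was at 618, 966 and 1165 in the duodenum and 1185, 1574 and 1906 in the jejunum. These groups did not overlap (-0.80, SE 0.12, adjusted p = 0.0031, edgeR). The mature lymphocyte miR-150-5p was at 89.4 to 315 against 212 to 388 (-0.90, adjusted p = 0.0075), and it kept the call with the share off, as did miR-142-5p.

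The other 4 leukocyte calls were miR-146b-5p (-1.11, adjusted p = 0.037), miR-142-3p (-0.77, adjusted p = 0.0092), miR-155-5p (-0.75, adjusted p = 0.037) and the myeloid miR-223-3p (-0.47, adjusted p = 0.0496) in the edgeR fit. When each rat was left out in turn, miR-146b-5p was past the threshold in 1 of 6 fits, miR-155-5p in 1 and miR-223-3p in 2, and the other 3 in all 6. Without a call, miR-146a-5p was at -0.86 (adjusted p = 0.052). On library totals none of the 7 was past the threshold, and miR-223-3p turned to 0.15. Summed over the 13 measured members, leukocyte names took 1661 to 2373 CPM in the duodenum and 1894 to 2727 CPM in the jejunum, so these ranges overlap before scaling.

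Other lower names that kept the call with the share off were miR-490-3p (-0.94, adjusted p = 0.0036), miR-147 (-0.93, adjusted p = 0.0031), miR-351-5p (-0.72, adjusted p = 0.014) and miR-182 (-0.40, adjusted p = 0.035) in the edgeR fit. The groups of miR-490-3p, which lies in a muscarinic receptor gene, did not overlap, at 33.7 to 59.8 in the duodenum and 67.2 to 93.7 in the jejunum. Those of miR-147, at 18.6 to 37.2 against 40.3 to 77.7, and of miR-351-5p, at 29.8 to 53.7 against 59.0 to 76.5, did not overlap either. These 3 were chosen after their values were seen. For miR-182, of the sensory cluster, the fold turned to 0.22 on library totals, and the call held in 1 of 6 fits with a rat left out (adjusted p up to 0.134). The other tested names of that cluster had no call in the edgeR fit. They were miR-183-5p at -0.40 (adjusted p = 0.065) and miR-96-5p at 0.21 (adjusted p = 0.58). Of the 35 lower names, 31 were lower in all 6 rats by scaled CPM and 5 by CPM.

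Smooth muscle, endothelial, neural and endocrine names gave no call. The muscle miRNA miR-143-3p, which had the highest mean CPM of the duodenum, was at 174929 to 273577 in the duodenum and 182275 to 303251 in the jejunum (-0.17, adjusted p = 0.57, edgeR, but 0.45 with adjusted p = 0.024 on library totals). The median over 6 muscle names was 0.02. The endothelial miR-126a-5p was at 0.01 and miR-126a-3p at -0.03. The endocrine miR-375-3p was at 0.44 (adjusted p = 0.094), with 36683 CPM in the pancreas, and at -0.19 with the share off.

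In the miR-200 family, 1 of 9 names was higher (miR-141-3p), near the 6.48% higher over all names, and 0 were lower. The median was 0.05, with miR-200b-3p at -0.25 and miR-429 at -0.23, both of which turned positive on library totals (0.37 and 0.39). The epithelial miR-200a-3p and miR-200c-3p were at 0.01 each (adjusted p = 0.98). Of the squamous epithelium names, miR-203a-3p (-0.58, adjusted p = 0.0088) and miR-203b-3p (-0.87, adjusted p = 0.039) were lower and miR-205 was not (-0.02), and the median of -0.58 turned to 0.04 on library totals.

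In the proliferation clusters 2 of 13 names were lower, miR-92a-3p and miR-93-5p (-0.43, adjusted p = 0.0075, edgeR), and 0 were higher, which is near the 8.73% lower over all names. Both turned positive on library totals, and the other 11 had adjusted p of 0.088 or more. Among fibroblast and matrix names, 1 of 7 was higher, miR-29c-3p (0.39, adjusted p = 0.039), near the 6.48% over all names, and it passed in 1 of 6 fits with a rat left out. The gut and liver list had 2 of 4 higher, against 6.48% over all names, and these are both arms of 1 miRNA, miR-31a, of which miR-31a-3p passed in 2 of 6 fits with a rat left out. They stood beside miR-802-5p at -0.23 (adjusted p = 0.19). The erythroid miR-451-5p was at 0.60 (adjusted p = 0.34), and the hepatocyte miR-122 names were too low to be tested, at up to 7.26 scaled CPM in all.

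**Figure D4:**
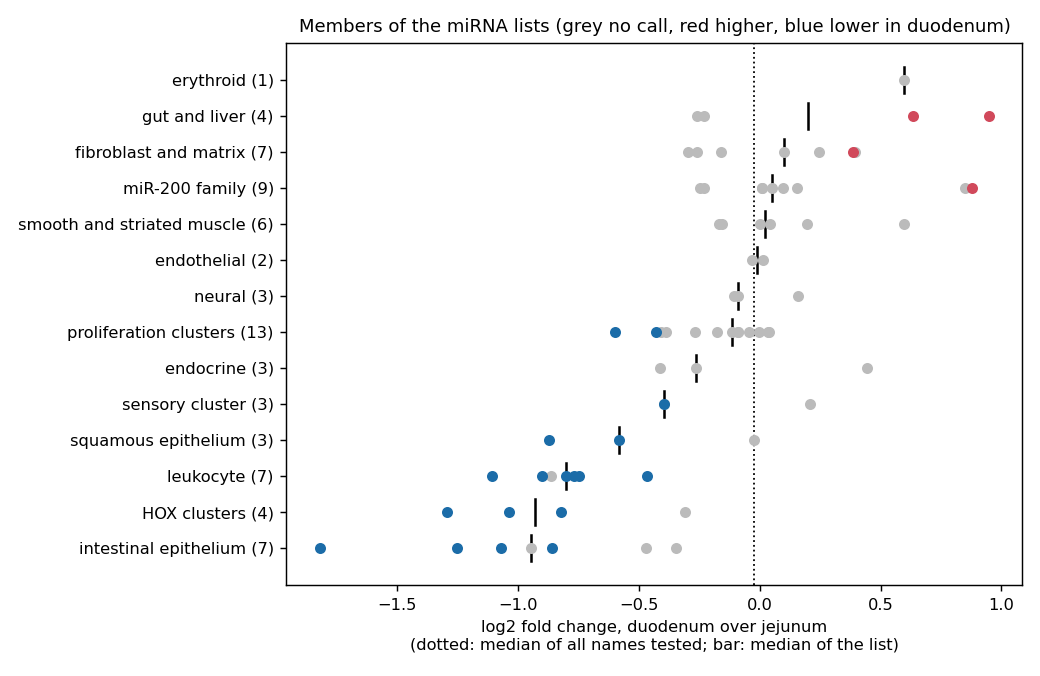
Log2 fold changes of the tested members of each list (number tested in brackets), with a bar at the list's median and a dotted line at -0.02, the median of the 401 names. The lists of the intestinal epithelium, the Hox clusters and leukocytes lie to the left, with medians of -0.95, -0.93 and -0.80. On library totals the 401 names shift by 0.617 to the right and the medians of the squamous epithelium, sensory, endocrine, neural, proliferation and endothelial lists turn positive.

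Tissue and sex did not interact past the threshold for any of the 401 names (0%), with 17 at an unadjusted p below 0.05 by edgeR. With 3 rats of each sex this does not show that the sexes are alike. Fitted alone, the males gave 26 calls and the females 18.

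The forms of the leading reads were set beside each other as well. The share of miR-215 reads that were its most counted sequence was 43.7% to 91.8% in the duodenum (median 91.2%) and 85.3% to 90.7% in the jejunum (median 89.9%). The mean difference of -6.14 percentage points rested on the duodenum of rat 8 (exact sign-flip test, p = 1, adjusted p = 1 over 6 such tests). In that library, 1 run held reads with an extra base at the 5′ end. Such reads were 63.9% of miR-215, 77.2% of miR-192-5p, 47.2% of miR-194-5p and 60.1% of miR-31a-5p in the run. In the other 25 runs they were 0.0074% to 0.0279% of miR-215.

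The extra base was in part a copy of the first base, as in the reads below, where the added base is in capitals. They are shown because they would read as a shifted seed.
miR-215, most counted read: atgacctatgatttgacagaca
miR-215, first base doubled: Aatgacctatgatttgacagaca
miR-192-5p, most counted read: ctgacctatgaattgacagcc
miR-192-5p, first base doubled: Cctgacctatgaattgacagcc
miR-31a-5p, most counted read: aggcaagatgctggcatagctg
miR-31a-5p, first base doubled: Aaggcaagatgctggcatagctg

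In the odd run the doubled form was 45.8% of miR-215, 32.9% of miR-192-5p and 40.9% of miR-31a-5p, and at most 0.00206%, 0.0826% and 0% in the other runs. For miR-194-5p, miR-204-5p and miR-217-5p it was 13.1%, 13.7% and 12.8%, a minority of the reads with an extra base (47.2%, 60.1% and 49.8%). In other runs with at least 100 reads of the name, reads with an extra base were 7.91% to 13.2% of miR-217-5p. They were at most 0.233% of miR-194-5p and 0.194% of miR-204-5p there. By name, miR-215-5p gained a call without the run, as given above, and the folds of miR-215, miR-192-5p and miR-194-5p were -1.27, -1.07 and -0.87. Without it the fit called 29 names higher and 39 lower of 396.

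**Figure D5:**
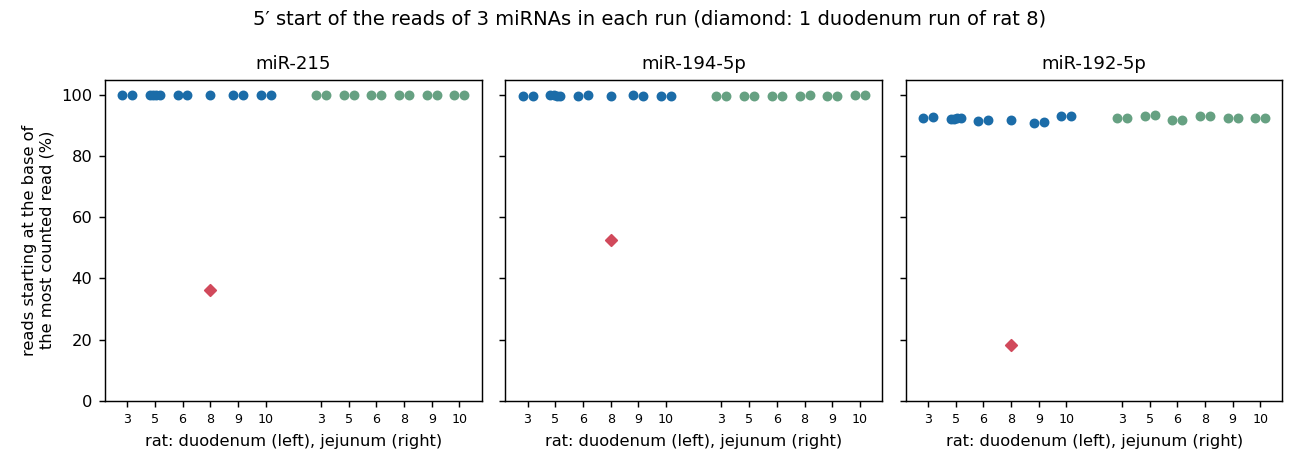
Percent of the reads of miR-215, miR-194-5p and miR-192-5p that start at the base of the most counted read, in each run of the 6 duodenum and 6 jejunum libraries. The diamond is the odd duodenum run of rat 8, at 36.1%, 52.7% and 18.3%, and the other 25 runs lie at 99.9%, at 99.7% to 99.9% and at 90.9% to 93.4%.

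Without that run, the most counted sequence of miR-215 was 91.0% ± 1.27 of its reads in the duodenum and 89.1% ± 2.02 in the jejunum (SD, n = 6 each). It was higher in the duodenum of 6 of 6 rats, by 1.86 points (exact p = 0.03125, the smallest possible, adjusted p = 0.19 over the 6 tests), so it does not pass the threshold. Leaving the run out was chosen after seeing the data.

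The reads that make up the rest mostly differ at the 3′ end, and the forms below are printed because their shares did not overlap between the tissues without the odd run. A base in capitals differs from, or is added to, the most counted read.
miR-192-5p, added T: ctgacctatgaattgacagccT
miR-192-5p, added AT: ctgacctatgaattgacagccAT
miR-215, last base T: atgacctatgatttgacagacT
miR-215, last base absent: atgacctatgatttgacagac
miR-215, added T: atgacctatgatttgacagacaT

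The form of miR-192-5p with an added T was 4.36% to 5.25% of its reads in the duodenum and 5.79% to 6.95% in the jejunum. That with an added AT was 2.04% to 2.79% against 3.08% to 3.985%. For miR-215, the form that ends in T was 0.352% to 0.448% against 0.570% to 0.700%, and the form 1 base shorter 4.86% to 5.82% against 6.13% to 6.90%. Its form with an added T was 0.222% to 0.357% against 0.359% to 0.486%. All 5 forms were thus less frequent in every duodenum library. They were picked after the shares of the 4 leading forms of each name were seen, so no test is given. Shares within a name also depend on each other. The form of miR-192-5p with an added A overlapped, at 7.99% to 10.57% against 6.875% to 10.57%. All leading forms of miR-194-5p overlapped too, as did the most counted reads of miR-215 and miR-192-5p. For miR-194-5p, the form with an added T was 24.6% ± 2.05 in the duodenum, 26.5% ± 2.05 in the jejunum and 1.92% ± 1.22 in the pancreas (SD, n = 6), where miR-194-5p itself was at 74.2 CPM.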

How the data were processed

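Small RNA of rat tissues was made into TruSeq libraries and sequenced on a HiSeq 2000. The authors trimmed adaptors and low-quality ends and discarded short reads with cutadapt 1.4.1, discarded reads with an N, collapsed identical sequences and quantified them with miRDeep2 against known miRBase hairpins, separately for the rat, mouse, human and C. elegans entries. The deposited values are counts of reads per miRNA name and per isomiR sequence in each run, without normalization. Reads that fit several precursors carry a composite name, and predicted miRNAs and precursors ("-pre") are listed beside mature names. Per the study's methods, the predicted names came from alignment to the rat genome build RN5, whose coordinates are not used here, and sequences and coordinates printed here come from RefSeq on GRCr8.

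Runs were summed per library. Where 2 runs of a library named the same lane, only 1 was used (2 of the 16 duodenum runs and 0 of the 12 jejunum runs were set aside). Duodenum and jejunum were taken from the same 6 animals, so the rat was a block in the fit. The test was edgeR 4.0.16 in R 4.3.3 (filterByExpr on tissue, upper quartile factors, the study's methods naming the upper quartile for their offset, glmQLFit and glmQLFTest, Benjamini-Hochberg over 401 names, threshold 0.05). The standard error is the log2 fold change divided by the square root of F. DESeq2 1.42.0 was an alternative. Other steps used Python 3.11.15, numpy 2.4.6, scipy 1.17.1, pandas 2.3.3 and matplotlib 3.10.9. The fit was tested on simulated data of 394 names of which 195 had a log2 change of 1 in either direction. It called 87.7% of these, and 4 of the unchanged names. Raised and lowered names were drawn in equal numbers, so the simulation does not test the choice of scaling. Intervals and floors (3 counts) cover counting error alone, because PCR copies of a molecule could not be told apart.

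The pancreas share of a library is its summed CPM of the miR-216a, miR-216b and miR-217 names over that of the same rat's pancreas library. For the fit with the share off, that share of the pancreas CPM was subtracted from each name's counts, which were rounded, with negative values set to 0. A list holds every non-precursor name whose parts all belong to it, with no predicted part. Named miRNAs were miR-215, miR-194-5p, the miR-216 and miR-217 names, up to 12 names per direction with the largest fold change among those past the threshold, of the same CPM direction in all 6 rats and at least 10 mean CPM (12 higher and 5 lower met this), the 5 most counted names of each tissue, and the leading or called members of the lists. Any others were chosen after their values were seen. The libraries, members and lists were chosen with earlier results of these data known. Correlations of libraries used log2 of CPM plus 1 over names with a mean above 1 CPM. The alternatives changed the scaling, filter, names tested, block, runs, rats, an extraction term and the pancreas share.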

Additional observations from a re-analysis of the deposited data

Results flagged for a closer look

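In each group of 6 libraries, the highest or lowest value was called outlying when its gap to the next value, over the whole range, exceeded Dixon's 95% limit for 6 samples. In 105 groups, 13 values did so, from 7 of the 12 libraries, and chance gives about 1 in 20 groups. The duodenum of rat 8 accounted for 4 of the 13 values.

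In 3 of these 4 the value was the percent of reads in the most counted sequence, at 43.7% for miR-215 (group median 91.2%), 37.0% for miR-194-5p (56.8%) and 21.2% for miR-192-5p (66.7%), all from the library with the run of reads that carry an extra 5′ base. The fourth was miR-31a-3p at 7.26 scaled CPM (median 10.6). In the jejunum of rat 3 the most counted sequence of miR-215 was at 85.3% (median 89.9%).

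In the duodenum of rat 5, whose RNA was re-extracted, both Hox cluster miRNAs were the highest of the group, with miR-10a-5p at 31330 (median 21900) and miR-10b-5p at 5236 scaled CPM (median 3830). In the duodenum of rat 9, miR-490-3p was at 59.8 (median 39.3). In the jejunum of rat 6, miR-4792 was at 574.7 (median 44.3) and miR-155-5p at 49.8 (median 31.6). In the jejunum of rat 9, miR-34c-5p was at 81.3 (median 42.9), and miR-216b-3p at 0.290, from 1 count, where the other 5 libraries had 0. In the jejunum of rat 10, miR-193b-3p was at 9.31 (median 6.07).

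No name of the 48 examined went 1 way in all 3 males and the other way in all 3 females.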

How the results depend on the processing

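All alternatives used edgeR unless DESeq2 is named. The count of names past the threshold stayed within 1.5 times of 61 with TMM, DESeq2, the predicted and precursor names left out, all deposited runs, the 6 duodenum against all 10 jejunum libraries, and without the odd run. It was 199 on library totals, 94 with no filter, 26 in males, 18 in females, 40 with a re-extraction term, 20 on the shared flow cell alone (222819 to 673433 counts a library) and 4 with all 10 rats. With the pancreas share off it was 17, or 15, 26 and 7 with the share from miR-148a-3p, miR-216a-5p and miR-217-5p. In the 2 rats whose duodenum and jejunum RNA were not re-extracted (3 and 8) 0 names passed, with 69 at an unadjusted p below 0.05. Leaving out each rat in turn gave 36 to 63, with 36 without rat 5 and 38 without rat 9. Of the 61 calls, 34 were made in all 6 of these fits and 21 in 3 or fewer. The mean pancreas share itself was 7.05% to 9.82% over the choices of names.

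The same animals gave both tissues, so the numbers pair the libraries, and without the block 55 names were past the threshold, 26 higher and 29 lower. Of the 77 named results, 71 kept their direction and side of the threshold without the pairing and 0 turned.

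Log2 fold changes of called miRNAs turned in these settings, and the cause was not tested. With the pancreas share off, or taken from miR-148a-3p, miR-216a-5p or miR-217-5p, they fell below 0 for miR-141-3p (-1.12, -1.28, -0.29 and -1.88), for miR-193b-3p (-0.69, -1.03, -0.16 and -1.30), for miR-34a-5p (-0.45, -0.76 and, from miR-217-5p, -1.29), and for the composite with miR-148a-3p (-0.0171 and, from miR-217-5p, -0.90). For miR-148a-5p, the share from miR-217-5p gave -0.15, and for miR-152-3p those from miR-148a-3p and miR-217-5p gave -0.0185 and -0.0542. With all 10 rats, 4 of whose duodenum libraries have another organ's profile, the values were -1.38 (miR-141-3p), -0.98 (miR-31a-5p), -0.67 (miR-152-3p), -0.65 (miR-31a-3p), -0.16 (miR-3473 composite), 0.62 (miR-34c-5p) and 0.35 (miR-351-5p). On library totals they were 0.22 (miR-182), 0.19 (miR-93-5p), 0.15 (miR-223-3p), 0.0362 (miR-203a-3p) and 0.0202 (miR-92a-3p), and with no filter 0.0932 (miR-182), 0.0576 (miR-93-5p) and 0.0215 (miR-223-3p).

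For the reads, the differences in percentage points rested on rat 8. Leaving out a rat in turn, the share of the most counted sequence differed by -8.001 to 2.02 (miR-215), -5.49 to 0.23 (miR-194-5p) and -7.62 to 2.62 (miR-192-5p), and the share of the same start by -10.5 to 0.0101 (miR-215), -7.69 to 0.00347 (miR-194-5p) and -12.5 to -0.277 (miR-192-5p), the highest value each time without rat 8. On the shared flow cell alone the most counted sequence differed by 1.65 (miR-215) and 2.28 (miR-192-5p) and the same start by 0.0193 (miR-215) and 0.00516 (miR-194-5p). Without the odd run the most counted sequence differed by 1.86 (miR-215), 2.29 (miR-192-5p) and 0.0847 (miR-194-5p), and the same start by 0.0103 (miR-215). With 6 pairs no exact p can be below 0.03125.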

Other observations

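Single libraries of other gut tissues held high levels of names that were low in the other rats. The glandular stomach of rat 3 had 12303 CPM of miR-215, whereas the other 5 glandular stomach libraries had 8.70 to 70.1 CPM. The glandular stomach of rat 10 had 189 CPM of miR-217-5p and 86.4 CPM of miR-216a-5p, and the other 5 had at most 0.730 and 0.381 CPM. In the ileum, 1 of the 6 libraries had the most counted sequence of miR-215 in 42.4% of its reads and that of miR-192-5p in 20.4%, values near those of the duodenum of rat 8.

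The highest fold change without a call was that of miR-6215, at 2.96 on the log2 scale (SE 1.18, edgeR adjusted p = 0.14). Of the 63 tested names that hold predicted miRNAs alone, 0 were past the threshold.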
